A study of Mus musculus with 12 samples.

Results

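The genes Hoxa7, Hoxa9, Hoxa10, Hoxb4, Meis1, Gata2, Myb, Lmo2, Tal1 and Erg encode transcription factors and cofactors of blood stem and progenitor cells, and their loci were followed in grafted and host brain macrophages by every open chromatin region (peak) that the deposited annotation assigned to them. This gave 52 of 60288 peaks in untreated mice and 43 of 54953 peaks after lipopolysaccharide (LPS). Of the 10 genes, 8 held at least 1 peak in each set, and Hoxa9 and Erg held none. The question was whether macrophages that descend from transplanted bone marrow keep accessible chromatin at these genes after months in the brain, compared with resident microglia of the same animals. No stem cell, progenitor or monocyte chromatin was among the groups. The state of these loci before the cells entered the brain is therefore not shown, and the values compare graft with host only.

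Open chromatin was mapped by ATAC-seq, in which a transposase cuts and tags accessible DNA, in cells sorted as CD45.1 (graft) and CD45.2 (host microglia) from the same brains. All mice were C57BL/6J, wild type, irradiated with 950 cGy and transplanted with wild-type bone marrow, and cells were isolated 9 months after transplantation by the study's text, where the labels give either 3.5 or 9 months. The 4 groups were CD45.1 and CD45.2 cells of 3 untreated mice (mice 4, 5 and 6) and of 3 mice killed 12 h after 2.5 mg/kg LPS (mice 1, 2 and 3). The sorted gate was negative for Ly6C and Ly6G, positive for CD11b and low for CD45, and each CD45.1 library therefore samples whatever graft-derived cells had that phenotype. A bulk library cannot tell fewer cells with an open site from a site that is less open in each cell. The host microglia had been irradiated and the transplanted cells had not, a limit that the paper also raises. Origin and irradiation therefore cannot be told apart in any comparison of CD45.1 with CD45.2.

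HOX factors set positional identity in the embryo and, in the blood system, several HOXA and HOXB genes are active in stem cells and are shut down as myeloid cells mature. MEIS1 is a homeodomain cofactor that binds DNA together with HOX and PBX proteins. GATA2, TAL1 (also called SCL) and the bridging protein LMO2 sit in one DNA-bound complex in stem cells, TAL1 through E-box elements, while MYB sustains progenitor proliferation and ERG is an ETS-family factor of stem cells. GATA2, TAL1, LMO2, MEIS1 and ERG are also known from endothelial cells.

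The regions on which the results turn are shown first, as windows of 150 bases centred on the peak, on the forward strand of mm9. The untreated comparison called 3 member peaks, and a Myb peak that differed between LPS and untreated mice in both populations is shown beside them. The Myb peak at 15906 bp past the start site (chr10:20864810-20864959) covers a coding exon of Myb and the annotated start of the antisense gene Gm16786 (chr10:20864900-20874180). The deposited annotation assigns this peak to Myb, and the tags do not say to which of these genes it belongs. The Myb peak at 16270 bp (chr10:20864446-20864595) lies in an intron of Myb, and the Gata2 peak at -16662 bp (chr6:88131922-88132071) and the Myb peak at -31660 bp (chr10:20912376-20912525) lie between genes. Capitals mark matches, on either strand, to 9 short motifs, namely the GATA factor site AGATAA, the E-box CAGNTG, the ETS site GGAAGT, the RUNX site TGTGGT, the MYB site TAACNG, the MEIS site TGACAG, the C/EBP site TTGCNNAA, the AP-1 site TGANTCA and the cyclic AMP response element (CRE) TGACGTCA. The CRE was added to the search after the sequences had been read.
Myb +15906: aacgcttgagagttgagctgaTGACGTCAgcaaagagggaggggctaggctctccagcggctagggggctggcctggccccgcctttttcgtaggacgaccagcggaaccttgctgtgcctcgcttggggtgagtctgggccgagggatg
Myb +16270: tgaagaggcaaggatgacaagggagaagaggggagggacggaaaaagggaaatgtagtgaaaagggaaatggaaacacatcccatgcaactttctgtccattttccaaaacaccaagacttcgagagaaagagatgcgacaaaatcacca
Gata2 -16662: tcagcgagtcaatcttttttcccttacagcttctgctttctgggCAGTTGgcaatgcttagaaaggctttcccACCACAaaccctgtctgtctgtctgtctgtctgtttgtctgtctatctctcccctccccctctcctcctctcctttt
Myb -31660: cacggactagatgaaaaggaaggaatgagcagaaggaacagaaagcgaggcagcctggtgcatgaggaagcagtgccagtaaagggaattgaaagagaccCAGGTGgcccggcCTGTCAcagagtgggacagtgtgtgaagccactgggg
The Myb +15906 window held the CRE, present in 1.08% of 60287 windows over all untreated peaks. Because the CRE was chosen after the sequences had been read, this share does not measure how unusual the match is. The Myb +16270 window held no match. The Gata2 window held an E-box, present in 30.7% of all windows, and a RUNX match, present in 12.7%. The Myb -31660 window held an E-box and a MEIS match, the latter present in 12.0% of all windows. Over all 52 member windows, 5 held a GATA match (9.62%, against 3.81% of all windows), 15 an E-box (28.8% against 30.7%) and 8 an ETS match (15.4% against 32.2%).

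In untreated mice the member peaks that passed the limits, at Gata2 and Myb, were more accessible in host microglia than in grafted cells, and no member peak passed them in favour of the graft. Peaks were called at an adjusted p under 0.01 and a difference over 4-fold (DESeq2), after a filter that needed over 10 tags in at least 1 library. Of the 52 member peaks, 48 passed the filter, and 3 were called higher in CD45.2, against 2.65% of the 59170 tested peaks of the genome. None was called higher in CD45.1, against 3.78% of all tested peaks. By edgeR 0 member peaks were likewise called in that direction, and 3 had an unadjusted p under 0.05 in DESeq2 (12.9% of all peaks). At an adjusted p under 0.01 and any fold, 6 member peaks were higher in CD45.2 (4.06% of all peaks) and 1 was higher in CD45.1 (6.01% of all peaks). At an adjusted p under 0.05 these counts were 7 (6.32% of all peaks) and 2 (8.54%). Of the 48, 35 passed the filter in both populations, 12 through CD45.2 libraries alone and 1 through CD45.1 libraries alone. The called Myb peaks at 15906 and 16270 bp were among the 12, with at most 6.5 and 3 tags before normalisation in CD45.1. Part of the calls above and of the next values therefore follows from the filter. The log2 fold change of CD45.1 over CD45.2 was below 0 in 41 of the 48, with a median of -0.65, where the median of all tested peaks was 0.00 and 49.9% lay below 0. The member peaks ranged from -3.12 to 1.40.

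**Figure D1:**
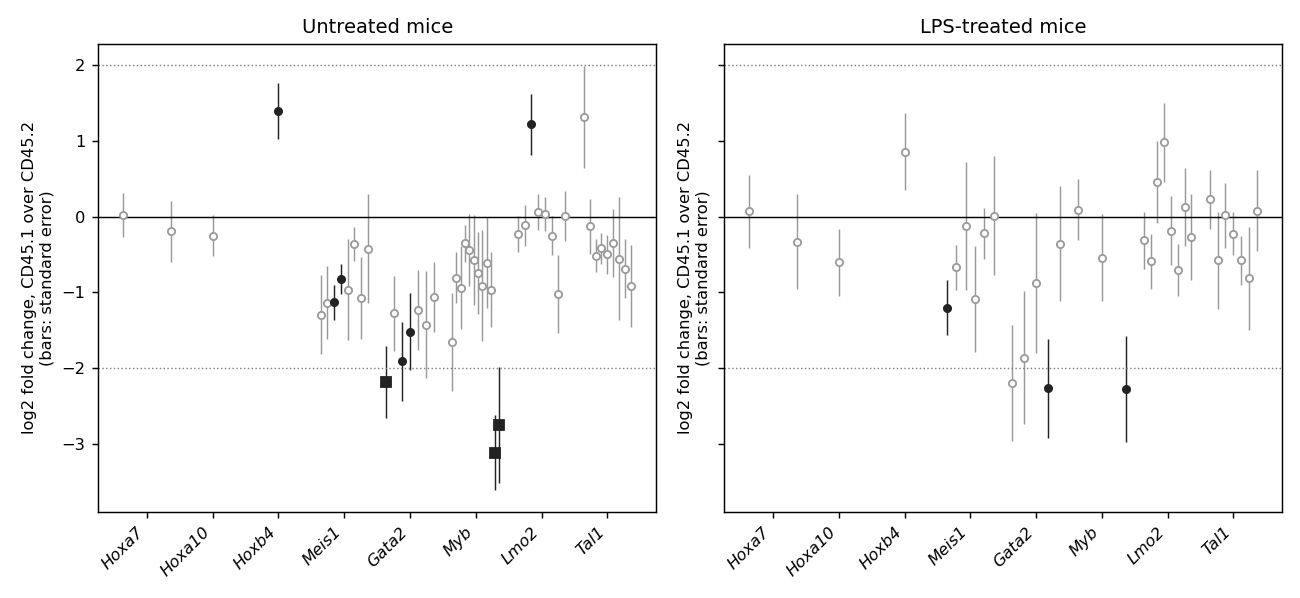
Each point is a member peak that passed the filter, at its log2 fold change of CD45.1 over CD45.2 (vertical axis, bars give the standard error), grouped by gene and ordered by position within it, in untreated (left) and LPS-treated mice (right). Filled symbols have an adjusted p under 0.05, squares are the 3 called peaks, dotted lines mark 4-fold. Every plotted Gata2, Meis1 and Myb peak of untreated mice lies below 0, and the Hoxb4 peak lies above it. Several of these Gata2, Meis1 and Myb peaks passed the filter through CD45.2 libraries alone.

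The peak lists of the single libraries were counted as well. In untreated mice 14 of the 52 member peaks were listed in none of the 3 CD45.1 libraries, or 26.9% against 11.5% of all peaks, and 2 were listed in none of the CD45.2 libraries (3.85% against 9.8%). After LPS 16 of 43 were listed in no CD45.1 library (37.2% against 17.9%) and 2 in no CD45.2 library (4.65% against 16.4%). All 6 libraries listed 17 of the 52 untreated peaks (32.7%, against 46% of all peaks).

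Summing the tags over all peaks of a gene gave 1 value per gene and library. By this measure 5 of the 8 member genes with peaks differed in untreated mice at an adjusted p under 0.05, against 14.8% of the 16174 genes tested. Gata2, Meis1, Myb and Tal1 were lower in CD45.1 (7.46% of all genes were higher in CD45.2) and Hoxb4 was higher in CD45.1 (7.35% of all genes). The median log2 fold change of the 8 was -0.36, against 0.00 over all genes. Lmo2, Hoxa7 and Hoxa10 did not pass. For the gene sums below, the share of all genes whose groups did not overlap was not counted. With size factors from total tags Gata2 alone passed, while the log2 fold changes moved little, from -0.85 to -0.82 for Meis1 (adjusted p = 0.225 by DESeq2) and from -0.91 to -0.87 for Myb (adjusted p = 0.250), and Hoxb4 (1.36, adjusted p = 0.115) and Tal1 (-0.42, adjusted p = 0.9999) did not pass either.

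**Figure D2:**
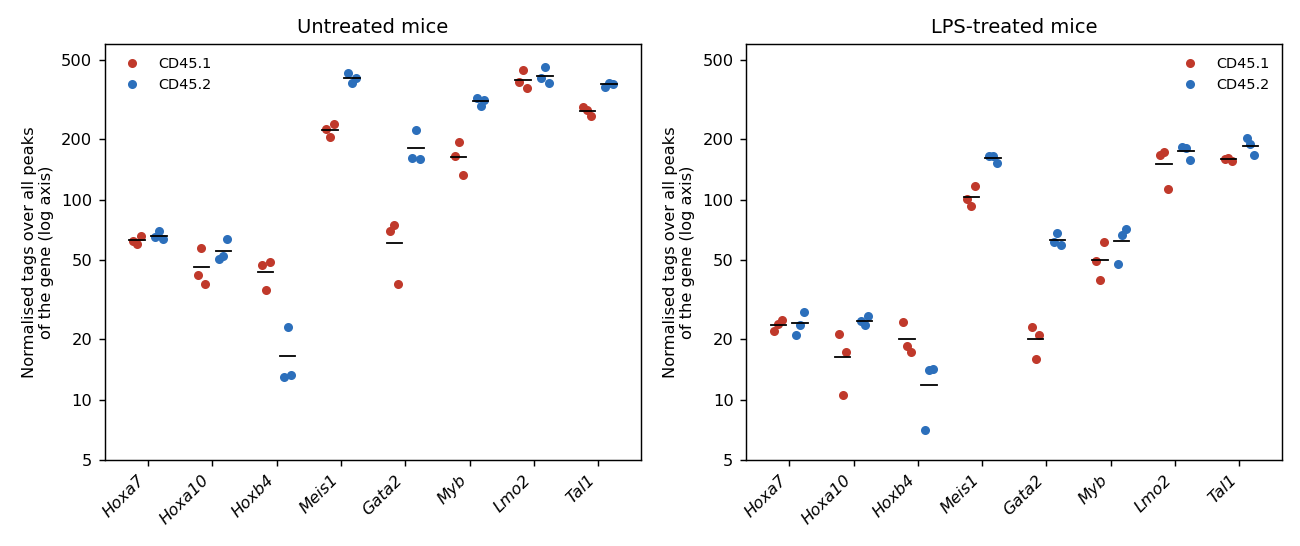
Normalised tags summed over all peaks of each member gene (vertical log axis) in CD45.1 (red) and CD45.2 (blue) libraries of untreated (left) and LPS-treated mice (right), with 1 point per mouse and a line at the mean of 3. In untreated mice the groups do not overlap for Hoxb4, Meis1, Gata2, Myb and Tal1, and they overlap for Hoxa7, Hoxa10 and Lmo2. Among all tested untreated peaks the groups did not overlap for 17.7% in each direction, and the share over all genes was not counted.

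Among the HOX members, Hoxb4 was more accessible in the graft and Hoxa7 and Hoxa10 did not pass. Hoxb4, whose forced expression expands blood stem cells, had a single untreated peak, in its 5′ UTR at 373 bp (chr11:96179888-96180020). Its normalised tags in mice 4, 5 and 6 were 46.6, 34.2 and 49.6 in CD45.1 and 12.3, 22.4 and 12.98 in CD45.2. The groups did not overlap, which was also so, with CD45.1 above, for 17.7% of all tested peaks. The peak was 2.63-fold higher in CD45.1 (log2 fold change 1.40 ± 0.37 SE, adjusted p = 0.00233 by DESeq2), or adjusted p = 0.0251 with the mouse as a block. Without the CD45.2 library of mouse 6 the adjusted p was 0.0616. Hoxa10, which perturbs blood cell differentiation when overexpressed, had 42.0, 56.6 and 39.2 tags at its 5′ UTR peak in CD45.1 and 50.8, 51.1 and 61.7 in CD45.2. The groups overlapped, and the log2 fold change was -0.25 with a 95% interval of -0.79 to 0.29. Hoxa7 had a peak at -3247 bp with 40.1, 39.2 and 52.3 tags in CD45.1 and 43.4, 46.8 and 39.8 in CD45.2, which also overlapped (log2 fold change 0.02, 95% interval -0.54 to 0.59). Its peak at 998 bp had a log2 fold change of -0.19, with an interval of -0.99 to 0.60. These values do not exclude differences of the sizes that the intervals cover.

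Hoxa9, a driver of leukaemia together with Meis1, lies between Hoxa7 and Hoxa10 (chr6:52173099-52181088) and no merged peak touched its body. The nearest untreated peak lay 9.269 kb from its start site, and is the Hoxa7 peak at -3247 bp. After LPS the nearest lay 3.156 kb away, was assigned to Hoxa10 and was under the filter. Erg (chr16:95580776-95808200) held no peak in its body in any library's own list, and its nearest merged peak in untreated mice lay 73.117 kb upstream and was assigned to Ets2. That Ets2 peak was higher in CD45.1 but missed the limits for peaks (log2 fold change 1.53, adjusted p = 0.0125 by DESeq2). After LPS the nearest lay 61.452 kb away, was also assigned to Ets2 and did not pass (1.18, adjusted p = 0.485 by DESeq2). In their own lists, 4 of 6 untreated libraries and 0 of 6 LPS libraries had a peak within 20 kb of the Erg start site. No value for that region was analysed here.

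Elsewhere in the clusters, Hoxa4, a further HOXA gene, was also higher in the graft. Of 7 further HOXA genes 5 were tested in untreated mice, and Hoxa4 alone passed. It had 86.2, 70.4 and 105 tags in CD45.1 and 24.3, 36.6 and 34.9 in CD45.2 (log2 fold change 1.41 ± 0.27 SE, adjusted p = 5.59e-06 by DESeq2). The groups did not overlap, as for Hoxb4. After LPS 3 of the 7 were tested, and Hoxa4 was again higher in CD45.1 (log2 fold change 1.61, adjusted p = 0.00156 by DESeq2). Of 9 further HOXB genes 4 were tested in untreated mice and 1 after LPS, and none passed in either direction by DESeq2.

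Meis1 (chr11:18780433-18918961) was lower in the graft around its promoter. Over its 9 untreated peaks the summed tags were 225, 207 and 240 in CD45.1 and 429, 383 and 404 in CD45.2. The groups did not overlap, and the gene was 1.81-fold higher in CD45.2 (log2 fold change -0.85 ± 0.13 SE, adjusted p = 5.19e-10 by DESeq2). All 8 tested Meis1 peaks had log2 fold changes below 0, from -1.29 to -0.36. The Meis1 peaks at 141333, 48825 and -8445 bp passed the filter through CD45.2 libraries alone, so that part of this follows from the filter. The promoter peak at -64 bp had 77.0, 63.4 and 90.4 tags in CD45.1 against 152, 121 and 136 in CD45.2. It was 1.77-fold higher in CD45.2 (adjusted p = 0.00073 by DESeq2), under the 4-fold limit. The next peak, at -1525 bp, had 44.3, 39.2 and 51.7 tags against 111, 96.0 and 92.9. It was 2.19-fold higher in CD45.2 (adjusted p = 4.04e-05). The intronic peak at 93853 bp, with 56.0, 67.1 and 61.5 tags against 86.8, 71.6 and 81.6, did not pass (log2 fold change -0.36, 95% interval -0.81 to 0.09). Among the other 7 TALE cofactors, all tested, Meis3 alone passed, with 102, 101 and 71.8 tags in CD45.1 against 165, 150 and 168 in CD45.2 (log2 fold change -0.80, adjusted p = 0.000272 by DESeq2).

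Gata2 (chr6:88143885-88157024) showed the widest gap of the 8 genes in gene sums. Its 9 untreated peaks summed to 69.4, 75.0 and 38.0 tags in CD45.1 and 162, 223 and 160 in CD45.2. The groups were far apart, a 2.98-fold difference (log2 fold change -1.58 ± 0.23 SE, adjusted p = 1.72e-10 by DESeq2). All 7 tested Gata2 peaks were below 0, from -2.18 to -1.06. The Gata2 peaks at -13778, -8998 and -4709 bp passed the filter through CD45.2 libraries alone, so that part of this follows from the filter. Of the 9, 8 lay before the start site of the deposited annotation, between -16662 and -4709 bp, the last of them inside the longer gene model given above. The called peak at -16662 bp, shown above, had 8.40, 14.6 and 3.27 tags in CD45.1 and 26.2, 58.4 and 34.1 in CD45.2. It was 4.53-fold higher in CD45.2 (log2 fold change -2.18 ± 0.48 SE, adjusted p = 0.000114 by DESeq2) and was higher in 3 of 3 mice. Its log2 fold change was -1.81 without the CD45.1 library of mouse 6 and -1.78 without the CD45.2 library of mouse 5, both under 4-fold. The peak at -13778 bp had 8.86, 8.21 and 1.63 tags against 23.8, 26.7 and 26.4 and was 3.76-fold higher in CD45.2 (adjusted p = 0.00325, or 0.0226 with the mouse as a block). The peak at -8998 bp had 7.46, 5.02 and 10.3 tags against 26.2, 19.4 and 22.3, a 2.86-fold difference (adjusted p = 0.0221 by DESeq2, 0.0969 with the mouse as a block, and 0.0248 to 0.142 when any 1 library was left out). The promoter peak at -23 bp had 13.5, 10.04 and 12.5 tags against 32.0, 29.4 and 14.2 and did not pass (adjusted p = 0.116).

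Tal1 was lower in the graft by its sum, and Lmo2 did not pass by its sum. Tal1 (chr4:114729031-114744360) summed to 291, 280 and 262 tags in CD45.1 and 366, 383 and 380 in CD45.2 over 9 peaks. The groups did not overlap, at a 1.36-fold difference (log2 fold change -0.44 ± 0.12 SE, adjusted p = 0.00253 by DESeq2, or 0.0414 with the mouse as a block). No single Tal1 peak passed. The peak nearest its start, at 563 bp, had 59.7, 46.5 and 47.9 tags against 61.4, 88.6 and 65.3, with a log2 fold change of -0.50 (adjusted p = 0.212), and the tallest, at -3654 bp, had 76.0, 82.6 and 71.3 against 97.5, 103 and 105 (-0.42, adjusted p = 0.176). Lmo2 (chr2:103798143-103822035) summed to 386, 443 and 363 tags in CD45.1 and 407, 461 and 382 in CD45.2 over 8 peaks. These overlapped, and the log2 fold change was -0.07 with a 95% interval of -0.31 to 0.17. Its promoter peak at 32 bp had a log2 fold change of -0.25 and the peak at -12872 bp one of -0.23, neither past the limit. The Lmo2 peak annotated as intronic, at -2503 bp, had 27.1, 30.6 and 40.8 tags in CD45.1 and 17.2, 15.1 and 10.96 in CD45.2. It was 2.33-fold higher in CD45.1 (log2 fold change 1.22, adjusted p = 0.021 by DESeq2), which missed the limit for peaks, with an adjusted p of 0.118 with the mouse as a block and of 0.0187 to 0.2001 when any 1 library was left out.

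Myb (chr10:20844736-20880790) carried the largest single difference among the members. Its 13 untreated peaks summed to 165, 195 and 133 tags in CD45.1 and 321, 294 and 316 in CD45.2. The groups did not overlap and differed 1.88-fold (log2 fold change -0.91 ± 0.15 SE, adjusted p = 5.20e-08 by DESeq2). The peak at 15906 bp, with the CRE, had 5.60, 5.93 and 3.27 tags in CD45.1 and 42.6, 43.0 and 41.0 in CD45.2. It was 8.71-fold higher in CD45.2 (log2 fold change -3.12 ± 0.50 SE, adjusted p = 2.99e-08 by DESeq2), was called without each of the 6 libraries in turn, and appeared in the own lists of 3 of 3 CD45.2 and 0 of 3 CD45.1 libraries. The neighbouring peak at 16270 bp had 2.33, 2.74 and 2.18 tags against 18.02, 18.2 and 10.1. It was 6.74-fold higher in CD45.2 (adjusted p = 0.00406 by DESeq2), or adjusted p = 0.026 with the mouse as a block, and between 0.0108 and 0.076 when any 1 library was left out. Away from this pair the Myb locus differed less. The promoter peak at -29 bp had 9.79, 10.04 and 5.99 tags against 17.2, 12.8 and 15.4 (log2 fold change -0.75, adjusted p = 0.473), and the tallest peak, at -31660 bp, had 51.3, 75.3 and 52.3 against 85.2, 69.7 and 75.5 (-0.35, adjusted p = 0.433). All 12 tested Myb peaks were below 0, as were 49.9% of all tested peaks. The Myb peaks at 16270, 15906, 2743, 1210 and -61996 bp passed the filter through CD45.2 libraries alone, so that part of this follows from the filter.

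**Figure D3:**
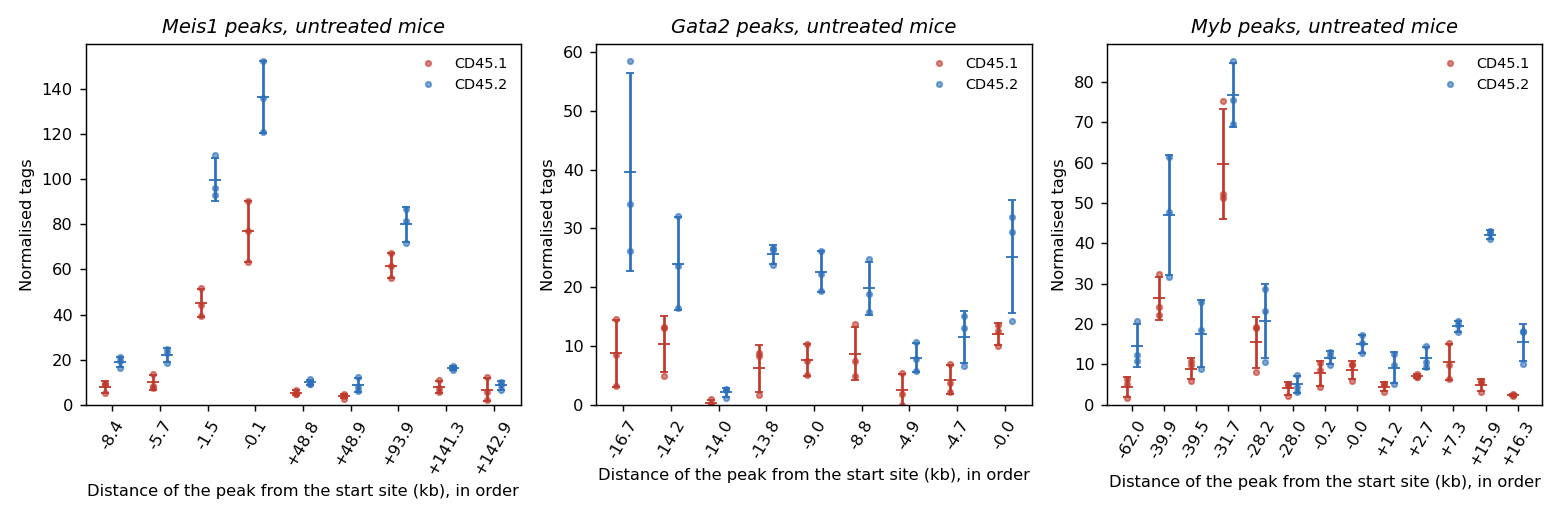
Normalised tags (vertical axis) at every untreated peak of Meis1, Gata2 and Myb, placed in order of distance from the start site in kb (horizontal axis, not to scale), for CD45.1 (red) and CD45.2 (blue). Points are the 3 mice, dashes and bars the mean and SD. The Myb peak at +15.9 kb has 41.0 to 43.0 tags in CD45.2 and at most 5.93 in CD45.1.

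After LPS the depth was lower and no member peak was called in the main test. Of the 43 member peaks 33 passed the filter, and by DESeq2 0 were called in either direction, against 1.19% of 49180 tested peaks higher in CD45.2 and 1.78% higher in CD45.1. At an unadjusted p under 0.05, 7 were higher in CD45.2 (6.49% of all peaks) and 0 in CD45.1 (9.01%), and of the 33, 10 had passed the filter through CD45.2 libraries alone. At an adjusted p under 0.05 and any fold, 3 were higher in CD45.2 (2.38% of all peaks), and with the mouse as a block none of the 3 had an adjusted p under 0.05. By edgeR 3 were called higher in CD45.2, where 4.31% of all peaks were called in either direction, namely the Gata2 peaks at -16681 and -32 bp and the Myb peak at 15914 bp. All 3 were among the 10 that passed through CD45.2 alone, with at most 3.5, 5.5 and 6 tags before normalisation in CD45.1. Part of these calls therefore follows from the filter. The Gata2 promoter peak at -32 bp had 4.45, 3.91 and 1.89 tags in CD45.1 of mice 1, 2 and 3 and 18.4, 16.1 and 18.4 in CD45.2. The groups did not overlap, at a 4.82-fold difference with an adjusted p of 0.0128 by DESeq2. Groups without overlap and with CD45.2 above were also found at 6397 of all 49180 tested LPS peaks. The Myb peak at 15914 bp, the counterpart of the untreated peak at 15906 bp, had 1.62, 7.83 and 2.36 tags against 9.63, 18.8 and 19.3 (log2 fold change -2.28, adjusted p = 0.0221). The Gata2 peak at -16681 bp had 1.21, 1.957 and 3.30 tags against 9.63, 12.2 and 13.4 (log2 fold change -2.20, adjusted p = 0.0602). The Meis1 peak at -1563 bp had 14.96, 21.5 and 21.2 tags against 34.2, 50.2 and 41.0, a 2.31-fold difference (adjusted p = 0.019 by DESeq2, 0.143 with the mouse as a block, and 0.0288 to 0.308 when any 1 library was left out).

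By summed tags 2 of the 8 genes passed after LPS, against 7.07% of 15722 genes, both lower in CD45.1. Gata2 had 22.9, 15.9 and 21.1 tags in CD45.1 and 61.6, 68.2 and 59.5 in CD45.2, a 3.11-fold difference (log2 fold change -1.64 ± 0.32 SE, adjusted p = 1.66e-05 by DESeq2). Meis1 had 101, 92.7 and 117 tags against 166, 166 and 153 (log2 fold change -0.63, adjusted p = 0.021 by DESeq2). The Meis1 groups did not overlap, but with the mouse as a block the adjusted p was 0.234, and it lay between 0.0692 and 0.215 when either CD45.1 library of mouse 1 or 2 or the CD45.2 library of mouse 2 or 3 was left out. Hoxb4 had 24.6, 18.5 and 17.3 tags against 7.05, 13.98 and 14.3, again without overlap and not past the limit (log2 fold change 0.71, 95% interval -0.21 to 1.62, adjusted p = 0.491). Myb had 49.1, 39.7 and 61.5 against 47.6, 66.4 and 71.4, which overlapped (log2 fold change -0.32, 95% interval -0.87 to 0.22). The log2 fold changes of Hoxa7, Hoxa10, Lmo2 and Tal1 were -0.05, -0.57, -0.20 and -0.22, none past the limit.

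Whether LPS moved these loci, and did so unequally in the populations, was read from peaks that overlapped by at least 50% both ways between the sets. There were 31 such member peaks of 39390, and 30 were tested with all 12 libraries in one fit, so values here are on a separate scale. Untreated and LPS libraries came from different mice and were counted in separate tables, over intervals that differed in width. No member peak had an interaction of population and treatment at an adjusted p under 0.05, against 0.242% of all matched peaks, and 0 had an unadjusted p under 0.05 by DESeq2 (edgeR also gave 0). In CD45.1 2 member peaks were higher and 1 lower after LPS at over 2-fold (6.77% and 4.98% of all matched peaks). In CD45.2 1 was higher and 3 were lower (7.68% and 3.7%).

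The Tal1 peak at -21178 bp, in the Stil intron, had more tags after LPS in both populations. The peak spanned 105 bp in the untreated set and 152 bp in the LPS set, and the part of this width in the rise was not tested. Its tags went from 6.22, 4.29 and 18.6 in untreated CD45.1 to 30.5, 35.0 and 58.8 after LPS. In CD45.2 they went from 4.35, 3.16 and 4.40 to 42.9, 32.9 and 31.5. No treated library overlapped an untreated one, and the rise was 4.36-fold in CD45.1 (log2 fold change 2.12 ± 0.42 SE, adjusted p = 1.55e-05 by DESeq2) and 8.96-fold in CD45.2 (3.16 ± 0.50 SE, adjusted p = 2.08e-08). The Myb peak at -31660 bp had fewer tags after LPS in both populations. It had 34.2, 50.2 and 34.4 tags in untreated CD45.1 and 18.8, 7.77 and 11.2 after LPS. In CD45.2 it had 56.6, 47.4 and 51.1 and then 17.7, 22.7 and 15.8, again with no overlap. The log2 fold changes were -1.59 (adjusted p = 0.000402) and -1.47 (adjusted p = 0.000236).

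Further peaks passed in a single population, and for none of them did the difference between populations pass. The Myb peak at -39925 bp rose in CD45.1, from 16.2, 22.04 and 14.3 tags to 38.7, 23.3 and 58.8 (log2 fold change 1.22, adjusted p = 0.00471 by DESeq2), and without the CD45.1 LPS library of mouse 3 its log2 fold change was 0.86. In CD45.2 its log2 fold change was 0.30, and the interaction was 0.92 with a 95% interval of -0.02 to 1.87. In CD45.2 the Tal1 peak at -8424 bp fell from 63.1, 54.3 and 67.0 tags to 20.2, 32.9 and 30.6 (log2 fold change -1.07, adjusted p = 0.00151), against -0.52 in CD45.1. It was -0.95 without the CD45.2 LPS library of mouse 1 and -0.999 without the untreated one of mouse 6, just under 2-fold. The Lmo2 promoter peak at 32 bp fell in CD45.2 from 52.2, 42.2 and 34.1 to 22.7, 20.2 and 17.5 (log2 fold change -1.11, adjusted p = 0.0102), against -0.68 in CD45.1. Its adjusted p was 0.0939 without the CD45.2 LPS library of mouse 3 and 0.0602 without the untreated one of mouse 4. In CD45.2 the treatment groups did not overlap at these Tal1 and Lmo2 peaks, and they overlapped at the Myb peak at -39925 bp. The share of all matched peaks without overlap was not counted. The differences between the populations described above for Gata2 at -16662 bp and Myb at 15906 bp had interaction terms of 0.01 (95% interval -1.61 to 1.62) and 0.81 (-0.68 to 2.30), intervals too wide to set a size.

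**Figure D4:**
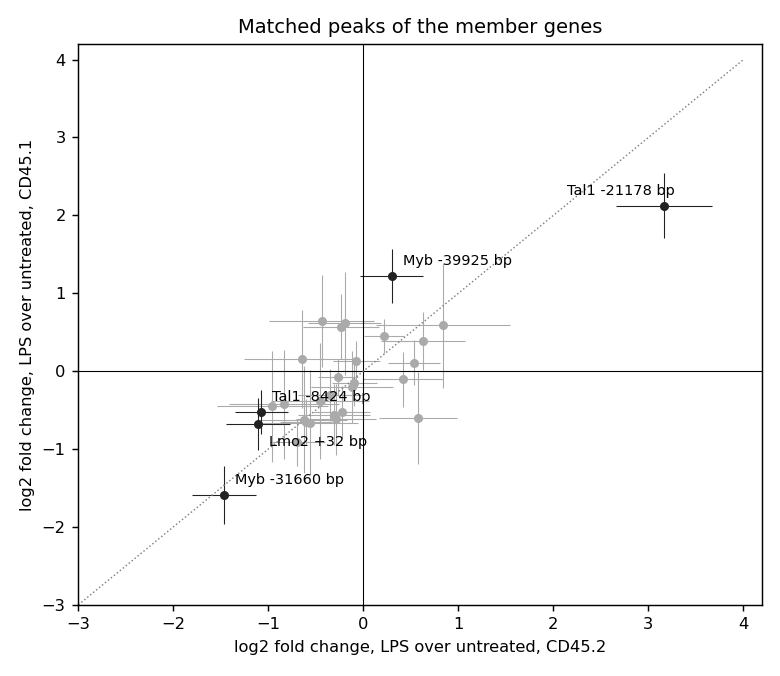
Each point is one of the 30 tested matched member peaks, at its log2 fold change of LPS over untreated in CD45.2 (horizontal axis) and in CD45.1 (vertical axis), with standard errors as bars and equality as a dotted line. Dark, named points passed an adjusted p under 0.05 and 2-fold in at least 1 population. Tal1 at -21178 bp lies far up in both, and Myb at -31660 bp far down in both.

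Other genes of the stem and progenitor system passed at shares near those of all genes. Of 56 further genes in 6 lists 44 were tested in untreated mice, and 3 were higher in CD45.1 (6.82%, against 7.35% of all genes) and 4 in CD45.2 (9.09% against 7.46%). After LPS 38 were tested, with 2 higher in CD45.1 (5.26% against 4.08%) and 2 in CD45.2 (5.26% against 2.98%). Of 9 partners of the members, 8 were tested and Lmo4, which encodes a LIM-only protein related to LMO2, was higher in CD45.1 in untreated mice, with 729, 732 and 695 tags against 486, 405 and 456 (log2 fold change 0.69, adjusted p = 2.27e-09 by DESeq2). Of 15 other regulators 13 were tested. Hlf, a leucine zipper factor of stem cells, was lower in CD45.1, with 191, 202 and 152 tags against 326, 271 and 303 (log2 fold change -0.71, adjusted p = 2.74e-05), as was Ikzf2 (-0.41, adjusted p = 0.0241, or 0.158 with the mouse as a block). Of 9 surface genes 7 were tested, Kit and Tek having no peak. Cd34, a surface marker of progenitors and of endothelium, was lower in CD45.1, with 63.7, 92.6 and 38.0 tags against 168, 147 and 190. Its log2 fold change was -1.37 (adjusted p = 1.95e-07 by DESeq2). The paper counts Cd34 among proposed microglia signature genes and found its RNA in host microglia alone. Flt3, a receptor of progenitors, was higher in CD45.1 (0.54, adjusted p = 0.0169 by DESeq2, or 0.0713 with the mouse as a block). After LPS Lmo4 (0.90), Meis3 (-1.004) and Cd34 (-1.05) passed in the same directions, Meis3 with an adjusted p of 0.00439 that became 0.0907 with the mouse as a block.

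Markers of other cell types were read from the same gene sums, and those that passed lay in both directions. Of 7 microglial genes, all tested, Sall1, which encodes the zinc finger factor that defines microglia, was higher in CD45.2 in untreated mice, and the summed list ranged from 1415 to 1984 in CD45.1 and from 2632 to 2836 in CD45.2. The other 6 genes without Sall1 summed to 1392 to 1796 in CD45.1 and 1644 to 1722 in CD45.2, which overlapped. Sall1 had 124, 187 and 23.2 tags in CD45.1 of mice 4, 5 and 6. In those libraries the sums of Gata2, Myb and Tal1 were likewise lowest in mouse 6, while those of Meis1 and Hoxb4 were highest in mouse 6. Without the CD45.1 library of mouse 6 the Gata2 sum had a log2 fold change of -1.34. Of 8 endothelial markers 6 were tested, and Cdh5, Emcn and Kdr were higher in CD45.2, while Tek and Tie1 had no peak. Cdh5, the adhesion protein of endothelial junctions, had 43.1, 36.1 and 33.8 tags in CD45.1 against 217, 231 and 198 in CD45.2. The summed endothelial list ranged from 787 to 873 in CD45.1 and from 1283 to 1314 in CD45.2, and after LPS from 415 to 456 and from 554 to 616. The neuronal list was also higher in CD45.2 (54.4 to 63.3 against 199.7 to 224), with 3 of 4 genes past the limit. Border macrophage markers were higher in CD45.1 in 4 of 5 tested genes (815 to 880 against 306 to 377). The summed erythroid list, of which 3 of 6 genes had peaks, ranged from 306 to 326 in CD45.1 and 341 to 383 in CD45.2, and none of its genes passed. Of the blood cell lists, Lyz1 of 7 tested monocyte genes and Ms4a1 of 2 tested B cell genes were higher in CD45.1, as were Cd3d and Ncr1 of 4 tested T and NK cell genes, while Lck of the latter and S100a9 of 4 tested neutrophil genes were higher in CD45.2. Of 4 astrocyte genes 2 were higher in CD45.2, and of 4 oligodendrocyte genes 1. With the mouse as a block Cd3d, Lck, S100a9 and Kdr, the neuronal Rbfox3 and the astrocytic Aldh1l1 no longer passed (adjusted p from 0.0666 to 0.141 by DESeq2). The part of these marker differences in the Gata2, Meis1, Tal1 and Myb results was not tested.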

How the data were processed

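ATAC-seq libraries of 12 sorted samples (CD45.1 and CD45.2 cells of 6 mice) were analysed from the deposited files. Per the labels and the file headers, the authors demultiplexed with bcl2fastq 2.17.1.14 and used Bowtie2, Picard 1.108 and HOMER on mm9. Peaks were called by the authors per library at an FDR of 0.001 and 4-fold over the local region. These deposited lists give a peak score (signal) and a fold over the local region (ratio), and were used here only for which regions a library listed. In the merged tables, 1 per treatment, the deposited values are unnormalised tags in steps of 0.5 and were treated as estimated counts, rounded after filtering. Each merged peak carries the gene that the authors' annotation assigned to it. Columns of the authors' own comparisons were not used.

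Total tags per library ranged from 8392878 to 9107770 in untreated and from 2966364 to 6556595 in LPS samples, and 18.4% to 39.0% of them lay in merged peaks. The lowest share was in CD45.2 of mouse 4. Normalised tags are counts divided by size factors. The 95% intervals come from the Wald standard errors of DESeq2, whose estimates of spread borrow from all features. They treat the libraries of a mouse as independent and rest on 3 mice per treatment.

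Peaks with over 10 tags in at least 1 of 6 libraries were fitted with DESeq2 1.42.0 (Wald test, Benjamini-Hochberg over all tested features) in R 4.3.3, each table separately, peaks and gene sums alike. Limits were an adjusted p of 0.01 with 4-fold for peaks, 0.05 for gene sums and interactions, and 0.05 with 2-fold for treatment. Named peaks were the called ones, the one nearest each start site and the tallest of each gene, and the treatment calls. Other peaks at an adjusted p under 0.05 were named after their values were seen. The member genes and lists were chosen with earlier results of these data known, and a few list genes and 1 sequence window are not reported here. Alternatives were edgeR 4.0.16, total-tag scaling, other filters, other matching of peaks, each library left out, and the mouse as a block. Both populations of a mouse were sorted from 1 animal, which pairs the samples, and the deviations of same-mouse libraries from their group means correlated at 0.0762 to 0.0897 in untreated and -0.0640 to 0.149 in LPS mice. Sequences and features were read from NCBIM37 (mm9) and GENCODE vM1, and 60287 of 60288 windows could be read.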

Additional observations from a re-analysis of the deposited data

How the results depend on the processing

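The size factors of the fit rest on tags in peaks. Scaling by total tags left the median log2 fold change over all untreated genes at 0.03 and moved that of LPS genes to 0.12 and of LPS peaks to 0.14, and gave 384 higher and 391 lower genes in CD45.1 untreated where the fit gave 1189 and 1206. Under it 1 member peak was called higher in CD45.2 in untreated mice, and 1 member gene (Gata2) passed in untreated mice and 1 after LPS, with the log2 fold changes of the others given above. The LPS value of Hoxa7 (-0.05) became 0.06, or -0.05 relative to that median, and no member that had passed changed direction under any alternative. Without a limit on fold and at an adjusted p of 0.05, 7 untreated peaks were higher in CD45.2 (6.32% of all peaks) and 2 in CD45.1 (8.54%), and 3 were higher in CD45.2 after LPS (2.38%). edgeR called 3 peaks higher in CD45.2 after LPS, where DESeq2 called 0, and these 3 had passed the filter through CD45.2 libraries alone. With each mouse as a replicate block 2 untreated peaks stayed called, 5 member genes passed in untreated mice and 1 after LPS, and of the other stem cell and marker genes that passed it left 19 of 27 in untreated mice and 10 of 14 after LPS. It changed no interaction call, and it changed no other member call. Treatment within a population was not fitted with it, since no mouse had both treatments. The cause of these shifts was not tested.

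Leaving out 1 library at a time gave 1 to 2 untreated peaks called higher in CD45.2, with 1 when the mouse 6 graft library or the mouse 5 host library was dropped, 4 to 5 untreated genes, 1 to 2 genes after LPS, 2 to 4 treatment peaks in CD45.1 and 3 to 4 in CD45.2. No member peak was called higher in CD45.1, and none had an interaction, with any 1 library dropped. Peaks of few tags limit what can be seen, since 10 of 43 LPS peaks and 4 of 52 untreated peaks were under the filter.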

Other observations

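The 4 untreated member peaks under the filter held few tags. The Gata2 peak at -13961 bp had 0.933, 0 and 0 normalised tags in CD45.1 of mice 4, 5 and 6 and 2.46, 2.71 and 1.22 in CD45.2, and the one at -4918 bp had 1.87, 5.48 and 0 against 10.7, 7.74 and 5.68. The Meis1 peak at 48941 bp had 4.66, 2.74 and 3.81 against 12.3, 7.74 and 6.09, and the Myb peak at -27998 bp had 5.13, 2.28 and 4.90 against 3.28, 7.35 and 4.46. The first 3 were listed by 2 of 3 CD45.2 libraries each. The share of all tags in merged peaks that fell on member peaks was 4.40 to 4.94 per 10000 in untreated CD45.1 and 6.65 to 7.09 in CD45.2, and after LPS 3.83 to 4.26 and 5.204 to 5.56, with no overlap between the populations in either treatment.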
